A study of Mus musculus with 8 samples.

Results

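ChIP-seq peaks were examined at 10 genes of the mesoderm and the primitive streak in the mouse ESC line E14Tg2a: T (brachyury), Eomes, Mixl1, Mesp1, Tbx6, Gata4, Gata6, Kdr, Hand1 and Hspg2. They were taken by name and not by a peak value, but with earlier results of these data known. They are 10 of 21951 protein-coding genes in GENCODE M21. ChIP-seq recovers DNA cross-linked to a protein with an antibody, and places where the sequenced fragments pile up are called peaks. A locus window ran from 20 kb upstream of a gene to 5 kb past its end, and the proximal promoter was the 1000 bp on either side of any transcript start. The 10 windows, 26548 to 126862 bp long, held 72 of the 176687 peaks called in 8 libraries.

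The libraries were made from passages 37 to 40 of this single cell line, with chromatin pooled from several plates. Pluripotent cells (ESCs) were grown with leukemia inhibitory factor (LIF), and differentiating cells (called NCs in the study, and written RA here) were monolayers without LIF that received 1 µM retinoic acid for 48 h. In both states the antibodies were against FGFR1, a growth factor receptor that also enters the nucleus, RXR, the shared partner of many nuclear receptors, and Nur77, an orphan nuclear receptor. In RA there was also an antibody against histone H3.3, a variant deposited outside replication. FGFR1 in RA had 2 libraries (replicates 1 and 2), the second titled as a second experiment, and each of the other 6 groups had 1 library, so LIF and RA could not be tested against each other. The lists hold no transcript levels, and the state of the cells could not be checked against marker genes here.

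Gastrulation begins when epiblast cells enter the primitive streak, lose their epithelial form and leave as mesoderm or definitive endoderm. T and Eomes are T-box factors that start this programme, Mixl1 is a homeobox factor of the streak, and Mesp1 is a basic helix-loop-helix factor that marks the first cardiac mesoderm. Tbx6 directs cells to the paraxial mesoderm, Gata4, Gata6 and Hand1 act in heart and other lateral derivatives (both GATA factors also in endoderm), Kdr is the VEGF receptor of blood and vessel progenitors, and Hspg2 encodes perlecan, a heparan sulfate proteoglycan of basement membranes. Retinoic acid drives cultured ESCs towards neural fates, and RXR with its receptor partners binds repeats of AGGTCA.

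At promoters, several of these genes carried FGFR1 peaks in RA, and none had one called in LIF. In LIF, FGFR1 had a peak at 0 of 10 promoters, where 17% of all protein-coding genes had one. In RA it was at 5 promoters in replicate 1 (Mixl1, Mesp1, Gata6, Kdr and Hspg2) against 50.7% of all genes, and at 4 in replicate 2 (Eomes, Tbx6, Kdr and Hspg2) against 49.6%, a mean of 4.5 ± 0.707 (SD, n = 2). The RA counts were thus close to the share of all genes. Kdr and Hspg2 were the 2 of 10 with a promoter peak in both replicates, against 39.5% of all genes. Kdr left this pair, and Hspg2 stayed, at a −log10 p of at least 10, with equal peak numbers, at scaled depth and with promoters of 500 bp, so the count was 1 under each of these 4 settings. A gene without a called peak is not a gene without signal. The background density, which stands for depth, was 2.71 fragments per kb in the FGFR1 LIF library against 4.16 and 6.78 in the RA replicates. Scaled to the shallower library, replicate 1 kept its 5 promoters, against 50% of all genes. Replicate 2 kept 2, against 46.3%. Beyond this scaling, the part of depth in the difference was not tested.

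RXR had a peak at 5 promoters in LIF (Eomes, Mesp1, Gata6, Hand1 and Hspg2), against 42.5% of all genes, and at 4 in RA (T, Mixl1, Mesp1 and Hand1), against 23.3%. Mesp1 and Hand1 carried RXR in both states. T and Mixl1 had it in RA and not in LIF, a pattern held by 3.94% of all genes, and Eomes, Gata6 and Hspg2 had it in LIF and not in RA, against 23.1%. The RXR library from LIF was the deeper one, with 7.09 background fragments per kb against 1.87 in RA. Scaled to the RA depth, the LIF count fell from 5 promoters to 1, that of Mesp1, and the share of all genes to 7.69%. The RXR RA library, where T and Mixl1 were called, is the shallower one. At genome background it needs at least 4 fragments for a peak, against 6 in LIF. The part of depth in these calls was not tested. At a −log10 p of at least 10 the RA count fell to 1, that of T, against 10.9% of all genes.

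Nur77 lay at 4 promoters in LIF (T, Gata6, Kdr and Hand1), against 25.5% of all genes, and at 3 in RA (Mixl1, Mesp1 and Kdr), against 25.8%. Kdr was the gene with Nur77 in both. Mixl1 and Mesp1 had it in RA alone, against 11.8% of all genes, and T, Gata6 and Hand1 in LIF alone, against 11.4%. H3.3 was called at the Mesp1 promoter, 1 of 10 against 15.5% of all genes, in the library with the lowest background density of the 8, 1.27 fragments per kb. A −log10 p of at least 10 left 1 Nur77 promoter in each state, that of Kdr. The shares of all genes were then 12.4% in LIF and 14% in RA.

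Over the wider windows, FGFR1 peaks in LIF were found at T and Eomes, 2 genes against 37.4% of all genes. In RA they were found at 9 genes in replicate 1, all but Hand1, against 73.8%, and at 6 in replicate 2 against 60.2%. RXR peaks lay in 8 windows in LIF (64.9% of all genes) and 8 in RA (44.7%), and Nur77 peaks in 6 in LIF (53.5%) and 8 in RA (56.3%). H3.3 peaks lay in the windows of Mesp1 and Gata6, 2 genes against 35%. The windows of these genes had a median of 32997.5 bp against 42403 bp for all genes. Gata4 was the member with no promoter peak in any of the 8 lists, as were 34.5% of all protein-coding genes, and Hand1 had no FGFR1 peak anywhere in its window in the 3 FGFR1 lists.

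**Figure D1:**
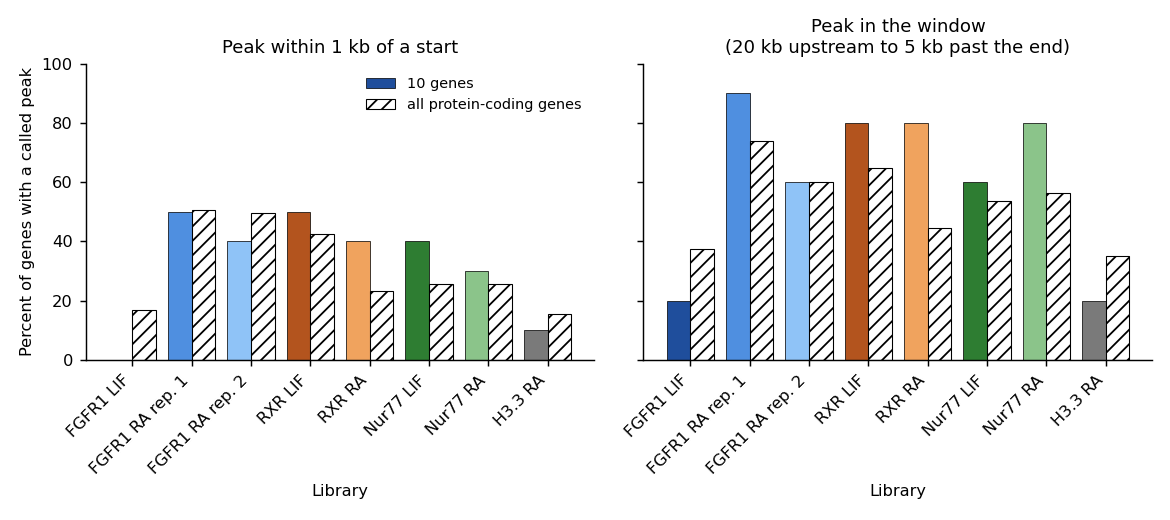
Percent of genes (y axis) with a called peak in each library (x axis), within 1000 bp of a transcript start (left) and in the locus window (right); filled bars are the 10 genes and hatched bars all 21951 protein-coding genes. FGFR1 in LIF had 0 of the 10 promoters against 17% of all genes, and RXR in RA had 4 of 10 against 23.3%.

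**Figure D2:**
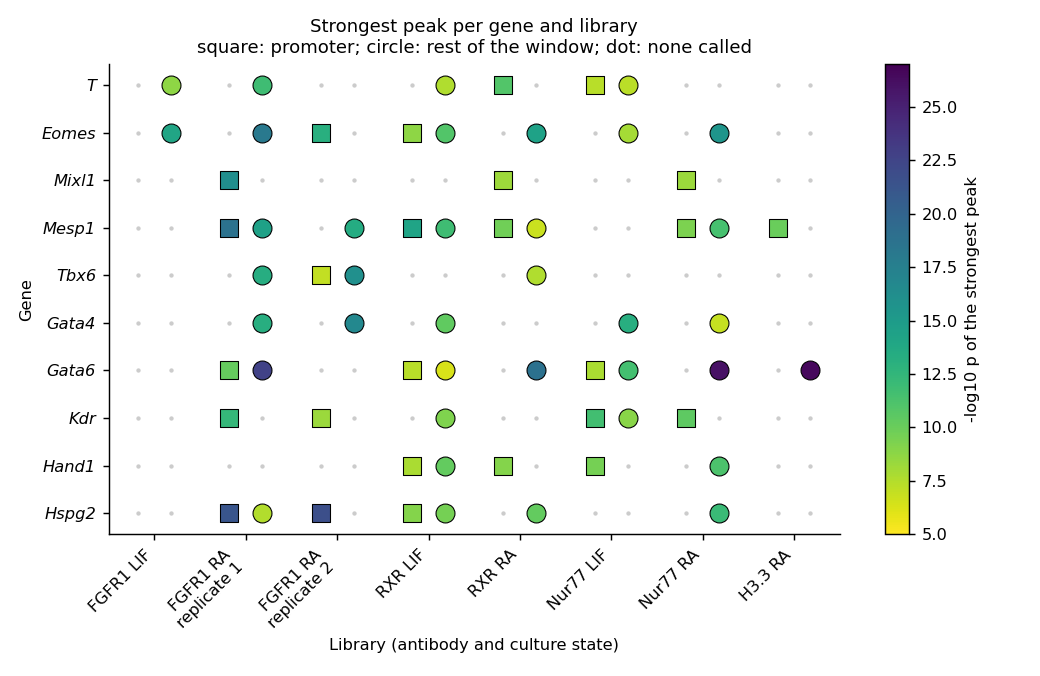
The strongest peak of each gene (rows) in each library (columns), coloured by −log10 p, as a square in the promoter and a circle elsewhere in the window; a small dot stands for no called peak. The Gata4 row holds no square, the Hand1 row no FGFR1 symbol, and the darkest symbols are the Gata6 circles of Nur77 in RA and H3.3.

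Of the 30 promoter peaks, 26 had their summit downstream of the nearest start, 86.7% against 61% of the 62456 promoter summits of all protein-coding genes. The sides were not taken alike. For the 30 peaks the start was one of the gene's own, and for all summits it was the nearest of any protein-coding gene. Coding sequence held 23 of the 30, or 76.7% against 20.7%. FGFR1 replicate 2 differed, with 2 of its 5 promoter summits downstream (40% against 57.5% of its list). In coding sequence it had 1 of the 5 (20% against 14%). Each other library with promoter peaks at these genes was above its own list in both shares. The 30 peaks fall at 15 sites, so they are not independent. Counted by gene, 8 of the 9 genes with a promoter peak had a summit in coding sequence (all but Tbx6), or 88.9%, against 42.9% of the 14324 genes with a promoter summit. The promoters of these genes had a median observed to expected CpG ratio of 0.574 against 0.552 over all genes, and a median GC content of 59.2% against 54.7%. All but Gata4 (52.4%) were above the GC median of all genes, and Hspg2, Mixl1 and T exceeded 94.9%, 91.7% and 82.7% of genes. The part of composition in the coding-sequence share was not tested.

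Most of the peaks were below the median strength of their own lists. They ranged from 6.37 to 26.6 in −log10 p and from 7 to 32 fragments at the summit, and 28 of the 72 were above the median −log10 p of their own list. In FGFR1 replicate 2, where the list median was 19.5, 1 of 8 was above it, and in RXR LIF 4 of 16 were. In FGFR1 replicate 1, with a list median of 11.6, 11 of 14 were above it. The FGFR1 replicates met at 2 places in these windows. Of the 8 replicate 2 peaks in the windows, 2 (25%) overlapped a replicate 1 peak, against 58.4% of the whole list, and of the 14 replicate 1 peaks, 2 (14.3%) overlapped replicate 2, against 20.6%. Those were the Hspg2 start and the Mesp2 promoter inside the Mesp1 window. The shares were not matched for peak strength.

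**Figure D3:**
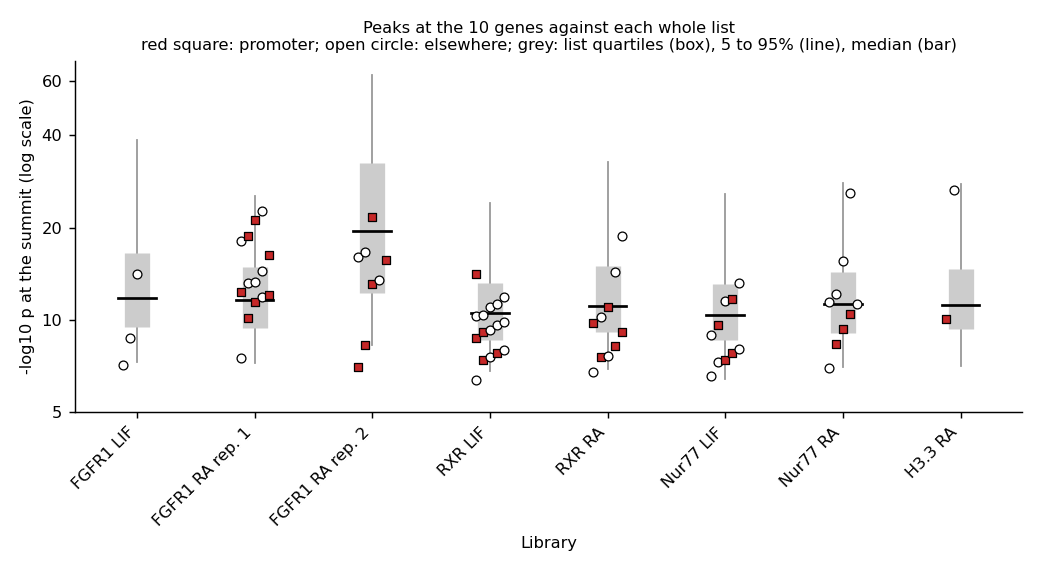
The −log10 p (y axis, log scale) of each peak at the 10 genes by library (x axis), with promoter peaks as red squares and the others as open circles; grey boxes, lines and black bars give the quartiles, the 5 to 95% range and the median of the whole list. In FGFR1 RA replicate 2, 7 of the 8 peaks lie under the list median of 19.5.

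T (chromosome 17, 8434423 to 8442496, plus strand) switches on the streak programme and later forms the notochord. Its promoter peaks lay in the coding part of the first exon. The RXR peak in RA was 185 bp past the start, with a fold over background of 7.27, a −log10 p of 11.0 and 10 fragments at the summit. The Nur77 peak in LIF was 224 bp past the start, with a fold of 5.38, a −log10 p of 7.36 and 8 fragments. The pair overlapped, from opposite states, and neither antibody had the site in its other state. The coding sequence is shown because it is the site of both receptor peaks, with capitals for the bases under both.
T coding site (mm10, chr17:8434575-8434705, plus strand): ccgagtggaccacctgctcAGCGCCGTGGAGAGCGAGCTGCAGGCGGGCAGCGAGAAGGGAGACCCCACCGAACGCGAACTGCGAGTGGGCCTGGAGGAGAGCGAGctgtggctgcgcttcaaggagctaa

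FGFR1 was not called at the T promoter, but lay 6861 bp upstream in LIF (−log10 p of 8.74) and 6796 bp upstream in RA replicate 1 (11.8). RXR in LIF was called at the same site with 7.58, and Nur77 in LIF nearby, 7097 bp upstream, with 7.27. This upstream site is a CA repeat, shown with its longest run of alternating purines and pyrimidines, 52 bp, in capitals. FGFR1 in LIF had a further peak 15916 bp upstream, in an intron of the neighbouring gene T2, with a −log10 p of 7.10 and an alternating run of 27 bp.
T upstream site (mm10, chr17:8427511-8427653, plus strand): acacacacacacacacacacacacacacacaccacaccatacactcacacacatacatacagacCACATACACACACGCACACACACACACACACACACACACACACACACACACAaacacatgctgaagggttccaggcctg

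Eomes (chromosome 9, 118478212 to 118486132, plus strand), the T-box factor that leads cells to endoderm and cardiac mesoderm, had 8 peaks in 7 of the 8 libraries. One site, about the same distance upstream in each list, accounted for 5 of them. FGFR1 was there in both states, at 3659 bp in LIF (−log10 p of 14.1, fold 8.65) and 3666 bp in RA replicate 1 (18.1, fold 10.1). RXR was there in both states with 11.0 in LIF and 14.3 in RA, and Nur77 in RA with 15.5. FGFR1 replicate 2 had no peak at this site. The sequence is a run of GGAA repeats followed by GGCA repeats, given with runs of at least 3 units in capitals, and the annotation puts no gene there.
Eomes upstream site (mm10, chr9:118474472-118474624, plus strand): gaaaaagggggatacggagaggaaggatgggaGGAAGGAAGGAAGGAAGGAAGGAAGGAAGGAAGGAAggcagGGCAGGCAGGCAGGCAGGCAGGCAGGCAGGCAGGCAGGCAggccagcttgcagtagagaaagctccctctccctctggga

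The promoter peaks of Eomes were of another kind and came from single libraries. FGFR1 replicate 2 had a peak 253 bp past the nearest start, in the UTR, with a fold of 6.38, a −log10 p of 13.1 and 20 fragments. RXR in LIF had one 283 bp past a later start, in coding sequence, with a fold of 5.58 and a −log10 p of 8.72, and Nur77 in LIF had one outside the promoter, 1693 bp past that start, with 8.01. The Eomes window thus held FGFR1 in all 3 FGFR1 libraries, at the upstream repeat in LIF and RA replicate 1 and at the promoter in replicate 2.

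Mixl1 (chromosome 1, 180693043 to 180697034, minus strand), a direct readout of streak signals, had peaks in RA libraries and in none of the 3 LIF lists. All 4 were in the coding part of its first exon. FGFR1 replicate 1 had a pair, 320 bp past the start (fold 9.67, −log10 p of 16.2, 14 fragments) and 155 bp past it (fold 7.73, −log10 p of 12.003). RXR was 254 bp past the start with a fold of 5.86 and a −log10 p of 8.20, and Nur77 117 bp past it with 5.93 and 8.33, both on 8 fragments. FGFR1 replicate 2 and H3.3, also from RA, had no peak in the window. The RXR and Nur77 peaks came from the shallower library of each antibody, by 1.87 against 7.09 and 3.82 against 4.98 background fragments per kb, and the cause of their absence in LIF was not tested. The site is given from the RXR to the Nur77 peak, with capitals for the bases under the peaks of at least 2 libraries.
Mixl1 coding site (mm10, chr1:180696754-180697003, minus strand): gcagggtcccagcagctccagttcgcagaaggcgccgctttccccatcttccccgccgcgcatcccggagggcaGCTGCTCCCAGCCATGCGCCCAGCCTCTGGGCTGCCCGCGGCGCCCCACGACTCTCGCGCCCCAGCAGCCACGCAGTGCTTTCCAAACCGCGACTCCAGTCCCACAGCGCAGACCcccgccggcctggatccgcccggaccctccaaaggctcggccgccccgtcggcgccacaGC

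Mesp1 (chromosome 7, 79792241 to 79793788, minus strand) held 7 promoter peaks from 5 libraries, the most of the 10 genes, and all were in its coding sequence. FGFR1 replicate 1 had a pair there, 752 bp past the start (fold 6.83, −log10 p of 11.4) and 512 bp past it (fold 9.65, −log10 p of 18.7, 20 fragments). RXR was 727 bp past the start in LIF (fold 6.97, −log10 p of 14.2), and 720 and 447 bp past it in RA (7.54 at a fold of 5.37, and 9.79 at 6.44, in −log10 p). Nur77 in RA was 697 bp past the start (fold 5.95, −log10 p of 9.31), and H3.3 was 533 bp past it (fold 6.59, −log10 p of 10.0). FGFR1 in LIF, FGFR1 replicate 2 and Nur77 in LIF were not called at Mesp1.

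The neighbour Mesp2, a segmentation factor of the paraxial mesoderm, starts inside the Mesp1 window and carried a similar set. Its promoter had 6 peaks from 5 libraries, again in coding sequence: FGFR1 replicate 1 with a −log10 p of 14.4, replicate 2 with 13.4, RXR in LIF with 11.8 and 9.81, RXR in RA with 6.77 and Nur77 in RA with 11.5. Mesp2 was thus one of the places in these windows where the FGFR1 replicates overlapped. RXR in LIF had a further peak in Mesp2 coding sequence, outside either promoter, with a fold of 6.24 and a −log10 p of 11.2. The study singled out Mesp2 and Hspg2 with these libraries, so their peaks are not independent evidence.

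Mesp1 and Mesp2 are near copies over this part of their coding sequence. Over 205 aligned bases, 185 were identical (90.2%), with an identical run of up to 42 bp, and 2 of the 7 Mesp1 summits and 3 of the 6 Mesp2 summits lay inside. The study kept uniquely aligned reads, so short reads within identical runs could be lost at both genes, and how far reads were shared between them was not tested. Both stretches are shown, with capitals at the 20 bases that differ.
Mesp1 coding stretch (mm10, chr7:79793100-79793304, minus strand): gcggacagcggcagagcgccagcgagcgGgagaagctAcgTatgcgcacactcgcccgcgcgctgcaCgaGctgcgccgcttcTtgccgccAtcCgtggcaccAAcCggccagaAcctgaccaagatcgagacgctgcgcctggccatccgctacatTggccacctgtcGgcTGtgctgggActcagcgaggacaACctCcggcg
Mesp2 coding stretch (mm10, chr7:79811161-79811365, plus strand): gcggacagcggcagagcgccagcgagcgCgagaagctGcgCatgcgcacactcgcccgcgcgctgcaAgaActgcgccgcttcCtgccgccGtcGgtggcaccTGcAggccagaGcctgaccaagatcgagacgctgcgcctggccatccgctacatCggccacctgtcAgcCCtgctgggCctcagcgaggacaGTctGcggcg

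Tbx6 (chromosome 7, 126781483 to 126785560, plus strand) had 1 promoter peak, from FGFR1 replicate 2, 404 bp upstream of its start. It was among the weakest of that list, with a fold of 3.58 and a −log10 p of 7.03, and 98.8% of the list was as strong or stronger. The gene lies in a dense region, and the stronger peaks in its window were nearer to neighbours: replicate 2 at the Ypel3 promoter (−log10 p of 16.1), replicate 1 in a Ypel3 UTR 1336 bp from the Tbx6 start (13.3) and RXR in RA at the Gdpd3 promoter (7.61). No Nur77 or H3.3 peak was called in the window. The upstream site is shown because it holds CCGGAAG, the core that ETS factors bind, which is in capitals. That word, on either strand, was found in 8.86% of 32851 RefSeq promoters (build GRCm38), and it was within 50 bp of 0 of the 72 summits, against 1.95% of all summits. The promoter share counts whole promoter sequences and not peaks, so it is no background for this site.
Tbx6 upstream site (mm10, chr7:126781055-126781220, plus strand): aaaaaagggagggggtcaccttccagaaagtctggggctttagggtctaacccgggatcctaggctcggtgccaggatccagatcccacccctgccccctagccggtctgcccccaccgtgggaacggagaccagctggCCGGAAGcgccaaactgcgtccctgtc

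Hand1 (chromosome 11, 57828705 to 57832818, minus strand), a helix-loop-helix factor of heart and extraembryonic mesoderm, carried peaks of the receptors and none of FGFR1 in these lists. RXR lay at one coding site in both states, 467 bp past the nearest start in LIF (fold 4.65, −log10 p of 7.81, 14 fragments) and 510 bp past it in RA (fold 6.18, −log10 p of 9.09, 10 fragments). These 2 peaks overlapped, and the sequence is shown with their shared bases in capitals. Nur77 in LIF was 781 bp past the same start, with a fold of 5.71 and a −log10 p of 9.60. Past the end of the gene, 8061 and 8076 bp from that start, RXR in LIF (10.3) and Nur77 in RA (11.2) met at an alternating run of 29 bp.
Hand1 coding site (mm10, chr11:57831562-57831722, minus strand): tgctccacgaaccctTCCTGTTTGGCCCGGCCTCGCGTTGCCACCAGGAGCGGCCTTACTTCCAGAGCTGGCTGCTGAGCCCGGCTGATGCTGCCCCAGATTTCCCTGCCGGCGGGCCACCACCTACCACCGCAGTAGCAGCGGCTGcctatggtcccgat

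Kdr (chromosome 5, 75932827 to 75978458, minus strand) had promoter peaks from 4 libraries at 3 places. In the first intron FGFR1 replicate 1, 682 bp past the start (fold 7.92, −log10 p of 12.3, 11 fragments), overlapped Nur77 in RA, 722 bp past it (fold 7.01, −log10 p of 10.4, 9 fragments). Nur77 in LIF was in coding sequence 317 bp past the start, with a fold of 7.56 and a −log10 p of 11.7. FGFR1 replicate 2 was 48 bp upstream, with a fold of 5.50 and a −log10 p of 8.28, so the replicates marked the same promoter at different sites. Farther in, RXR in LIF had peaks of 7.995 and 9.24 in −log10 p, 37419 and 28305 bp past the start, and Nur77 in LIF had one of 8.88 at an alternating run of 40 bp. The intron site is shown with the bases under both peaks in capitals.
Kdr intron site (mm10, chr5:75977690-75977904, minus strand): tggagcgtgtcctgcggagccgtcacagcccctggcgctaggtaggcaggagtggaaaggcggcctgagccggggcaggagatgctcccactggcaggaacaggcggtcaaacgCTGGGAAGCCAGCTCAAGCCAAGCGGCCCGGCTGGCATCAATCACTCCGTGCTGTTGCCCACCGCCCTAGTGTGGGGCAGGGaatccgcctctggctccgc

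Hspg2 (chromosome 4, 137468769 to 137570630, plus strand), the matrix gene of the set, had the strongest promoter peaks of the 10 genes and the one member promoter site that both FGFR1 replicates shared. At its start FGFR1 replicate 1 had a fold of 10.2 and a −log10 p of 21.2 on 23 fragments, and replicate 2 a fold of 7.89 and a −log10 p of 21.7 on 32 fragments. RXR in LIF was there too, with 5.21 and 9.11. The study singled out Hspg2 with these libraries, so its peaks are not independent evidence. FGFR1 replicate 2 had a further peak 306 bp upstream, with a fold of 6.41 and a −log10 p of 15.7. Against its own list the start peak stood higher in replicate 1, where 8.72% of peaks were as strong, than in replicate 2, where 44.7% were. The other peaks lay farther off: RXR in LIF 5400 bp upstream (9.61), FGFR1 replicate 1 in a late coding exon (7.51), RXR in RA (10.2) and Nur77 in RA (12.1) in introns at alternating runs of 33 and 28 bp. The upstream site is shown with every word that was searched and found in it in capitals, on either strand. The E-box CACGTG shares its last base with the T-box word TCACACC, read on the other strand, and these lay 113 and 107 bp from the summit. The GC box GGGCGG lay 101 bp from it, and the SMAD word CAGACA 23 bp from it. The shares of RefSeq promoters with these words were 7.15% for the E-box, 3.98% for the T-box word, 35.7% for the GC box and 21% for the SMAD word. They count whole promoter sequences and not peaks. The first RefSeq promoter listed for Hspg2 held the GC box and none of the other words shown. These shares are therefore no background for this site.
Hspg2 upstream site (mm10, chr4:137468312-137468583, plus strand): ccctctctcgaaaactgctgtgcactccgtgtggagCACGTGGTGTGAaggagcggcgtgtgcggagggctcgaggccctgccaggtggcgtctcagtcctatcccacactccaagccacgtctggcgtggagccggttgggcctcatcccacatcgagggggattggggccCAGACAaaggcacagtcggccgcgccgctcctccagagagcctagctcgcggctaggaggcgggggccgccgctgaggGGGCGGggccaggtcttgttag

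Gata4 (chromosome 14, 63198922 to 63271692, minus strand), which opens chromatin for heart and endoderm genes, had 5 peaks, none of them at its 5 transcript starts. FGFR1 replicate 1 and Nur77 in LIF met 11727 and 11723 bp upstream, each with a −log10 p of 13.2 and 11 fragments. RXR in LIF was called in an intron (10.3) and Nur77 in RA in coding sequence far from a start (6.97). FGFR1 replicate 2 had a peak of 16.7 at the downstream neighbour Neil2, a DNA repair gene. The upstream site is a GT-rich stretch, shown with its longest alternating run, 23 bp, in capitals.
Gata4 upstream site (mm10, chr14:63283354-63283489, minus strand): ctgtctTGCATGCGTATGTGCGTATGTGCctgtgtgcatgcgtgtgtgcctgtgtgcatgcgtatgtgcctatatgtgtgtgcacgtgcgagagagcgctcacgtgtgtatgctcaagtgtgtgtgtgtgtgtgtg

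**Figure D4:**
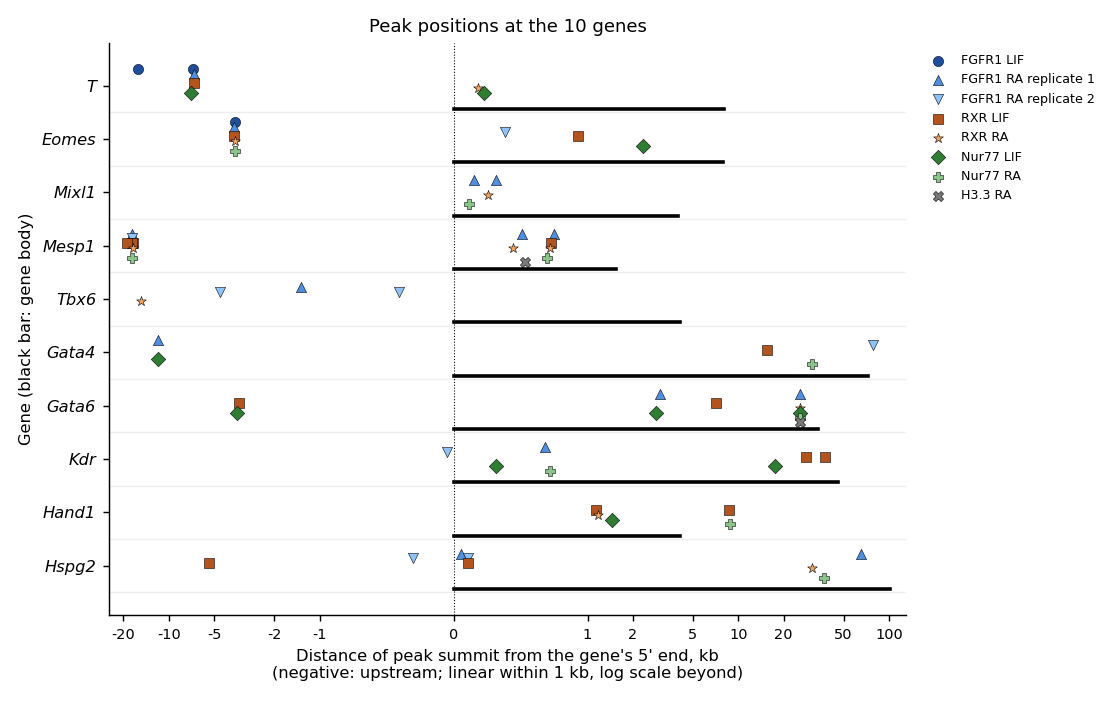
Position of every peak summit at the 10 genes (rows) relative to the 5′ end of the gene, in kb (x axis, linear within 1 kb and on a log scale beyond), with a symbol per library and a black bar for the gene body. The Mixl1 and T promoter symbols all lie past the start, the Eomes site 3659 bp upstream gathers 5 libraries, and the Gata6 intron site gathers 5.

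Gata6 (chromosome 18, 11052064 to 11085635, plus strand), which pairs with Gata4 in heart and endoderm, carried the strongest peaks of the 72. An intron site 18496 bp past the nearest start was called in 5 libraries. There H3.3 had a fold of 14.3 and a −log10 p of 26.6, Nur77 in RA 13.7 and 26.0, FGFR1 replicate 1 12.5 and 22.7, RXR in RA 10.9 and 18.8, and Nur77 in LIF 7.56 and 11.5. The site holds an alternating run of 82 bp and is masked as repeat over all of its length. It was called in 4 of the 5 RA libraries, FGFR1 replicate 2 being the other one, and in 1 of the 3 LIF libraries.

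At the Gata6 promoter the peaks were weaker and in coding sequence. FGFR1 replicate 1 lay 57 bp past a start (fold 6.27, −log10 p of 10.2), and Nur77 in LIF overlapped it, 109 bp before that start (fold 5.21, −log10 p of 7.81). RXR in LIF was 108 bp past another start (fold 5.28, −log10 p of 7.40). These are inner starts, and the 3 summits lay 3031, 2865 and 7091 bp past the 5′ end of the gene. When starts of protein-coding transcripts alone were used, none of the 3 counted as a promoter peak, and Gata6 had none left. Upstream of the gene, RXR in LIF (6.37) and Nur77 in LIF (6.53) had weak peaks in an intron of 1010001N08Rik.

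Alternating runs of at least 20 bp were under 17 of the 72 peaks. They lay at 9 of the 24 sites outside promoters, in 6 genes (T, Gata4, Gata6, Kdr, Hand1 and Hspg2), and under 0 of the 30 promoter peaks. Leaving such peaks out also changed little at promoters of all genes, by most in Nur77 RA, where the share fell from 25.8% to 24.3%. The share over all sites outside promoters was not counted. The distal sites of Eomes, Mesp1 and Tbx6 held none. No peak of FGFR1 replicate 2 in these windows held one, and in its whole list 1.26% of peaks did, against 21.1 to 51.7% in the other 7 lists. Of the 39 distinct sites, 14 (35.9%) were found in at least 2 libraries and 4 (10.3%) in at least 5, against 37.6% and 9.05% of 89569 sites in the genome. The 4 were the Eomes and Gata6 distal sites and the coding sites of Mesp1 and Mesp2.

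The words of known factors were counted at these summits beside all summits of the 8 lists. AGGTCA, the core bound by RXR and Nur77 partners, lay within 50 bp of 3 of the 72 summits (4.17%, against 4.38% of all summits), in the Eomes, Tbx6 and Gata6 windows, and of 0 of the 30 promoter summits (3.79% of all promoter summits). Its direct repeats with 1, 2 or 5 bases between were at 0 of the 72 and at 0.0141%, 0.00453% and 0.00283% of all summits. The T-box word TCACACC, the GATA-factor word AGATAAG, the TCF/LEF word ATCAAAG and the cAMP response element TGACGTCA were at 0 of 72, where 1.67%, 0.233%, 0.277% and 0.620% of all summits held them. The E-box CACGTG was at 7 summits (9.72% against 6.19%), each of them with an alternating run. The GC box GGGCGG was at 9 (12.5% against 13%) and the SMAD word CAGACA at 6 (8.33% against 10.8%). The NRF1 word was at 3 summits (4.17% against 0.503%), all at the single Mesp2 site. Words were searched on both strands, and these shares say nothing of binding by the factors.

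Other genes of the same programmes were counted at their promoters in the same way, each list by its number of genes with a peak. Over all genes the shares were 17% for FGFR1 in LIF, 50.7% and 49.6% in its RA replicates and 39.5% in both, 42.5% and 23.3% for RXR in LIF and RA, 25.5% and 25.8% for Nur77, and 15.5% for H3.3. Of 16 further primitive streak genes and signals, FGFR1 was at 1 in LIF (6.25%), at 7 (43.8%) and 4 (25%) in the RA replicates, and at 1 (6.25%) in both. RXR was at 7 of the 16 in LIF (43.8%) and 1 in RA (6.25%). In LIF no streak gene had Nur77 (0 of 16), and in RA 1 had it (6.25%). FGFR1 replicate 1 and RXR in LIF were near the share of all genes. The other shares lay below it, where 1 gene of the 16 is 6.25%.

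Of 10 paraxial mesoderm genes, FGFR1 was at 1 in LIF (10%), at 6 (60%) and 5 (50%) in the RA replicates, and at 5 in both (50%). RXR was at 4 of them in each state (40%). Nur77 was found at 4 (40%) when LIF was present and at 2 (20%) after RA. Of 15 genes of lateral mesoderm, heart and blood, FGFR1 was at 2 in LIF (13.3%), at 8 (53.3%) and 4 (26.7%) in the RA replicates, and at 3 in both (20%). RXR was at 5 (33.3%) and 3 (20%) of the 15 in LIF and RA, and Nur77 at 3 (20%) and 2 (13.3%). Replicate 1 was thus near the share of all genes in both lists, and replicate 2 in the paraxial list.

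Of 7 endoderm genes that act with Gata4 and Gata6, FGFR1 was at 0 in LIF, at 3 (42.9%) and 1 (14.3%) in the RA replicates, and at 0 in both. RXR was at 2 (28.6%) and 3 (42.9%) of them in LIF and RA, and Nur77 at 1 (14.3%) and 2 (28.6%). Of 10 basement membrane genes that act with Hspg2, FGFR1 was at 3 in LIF (30%), at 8 (80%) and 6 (60%) in the RA replicates, and at 5 in both (50%). RXR was at 7 (70%) and 4 (40%) of these, and Nur77 at 6 (60%) in each state. The basement membrane list was thus above the share of all genes in each of these libraries. With 10 genes, the gap was small for FGFR1 replicate 2 (60% against 49.6%) and for both replicates (50% against 39.5%). H3.3 was at 1 streak gene (6.25%), 2 paraxial genes (20%), 2 lateral genes (13.3%), 0 endoderm genes and 3 basement membrane genes (30%).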

How the data were processed

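Peak lists of 8 ChIP-seq libraries were analysed. The authors aligned reads with Bowtie 1.0 to mm10, kept uniquely aligned reads, and called peaks per library with MACS2 at a p limit of 1e-05, without pooling; no control is named. The deposited fold is the ratio of fragments at the summit to the local background, each plus 1. The deposited −log10 p and −log10 q are summit values, and the deposited score is a scaled −log10 p. Read totals are not in the lists, so fold and −log10 p were solved for whole fragments and background (tolerance 0.002 in −log10 p, solved for 100% of peaks, tested on simulated data), and the lowest background per kb stood for depth.

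Genes followed GENCODE M21 on GRCm38, with positions counted from 1. A promoter peak overlapped by at least 20 bp the 1000 bp on either side of any start, and peaks sharing 1 bp formed a site. All peaks of the 10 genes are accounted for. Summits of all promoters were those within 1000 bp of a start. CpG and GC were taken over 500 bp on either side of the start, repeats from the lower case letters of the assembly, and promoter words from RefSeq, which held 6 of the 10 genes. Scripts used Python 3.11.15, pandas 2.3.3 and pysam 0.24.0. The members, lists and alternatives were chosen with earlier results of these data known. No test was run, because 6 of 7 groups had 1 library.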

Additional observations from a re-analysis of the deposited data

How the results depend on the processing

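No paired analysis was possible because each antibody had 1 library per state, apart from FGFR1 in RA. Of 206 values under 15 other settings, 161 stayed within 1.5 times the reported count and 45 did not. A fold of at least 5 moved none past that range. A limit of −log10 q of at least 2 removed no peak from any list. Its values, which are among the 161, could therefore not move. Equal peak numbers removed no peak from FGFR1 LIF or H3.3. Scaling removed none from FGFR1 LIF, RXR RA or Nur77 RA. The FGFR1 LIF promoter count of 0 could not fall under any setting. These values are also among the 161, so that number overstates how stable the counts were. The causes were not tested beyond what each setting removes.

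A −log10 p of at least 10 left promoter peaks at 2 genes in FGFR1 replicate 2 and at 1 each in RXR LIF, RXR RA, Nur77 LIF and Nur77 RA. Under that limit, 46.5% of all genes had a promoter peak in FGFR1 replicate 2. The shares were 25.3% in RXR LIF, 10.9% in RXR RA, 12.4% in Nur77 LIF and 14% in Nur77 RA. The limit left window peaks at 1 gene in FGFR1 LIF, 4 in RXR LIF, 4 in RXR RA and 3 in Nur77 LIF. Those windows held 1, 6, 4 and 3 peaks. The 11378 strongest peaks of each list (all 10634 for H3.3) left promoter peaks at 3 and 2 genes in the FGFR1 RA replicates, 1 in RXR LIF, 2 in RXR RA, 1 in Nur77 LIF and 0 in Nur77 RA. Over all genes the promoter shares were 18.9% and 44.7% in the FGFR1 RA replicates, 16% in RXR LIF and 14.5% in RXR RA. They were 10.9% in Nur77 LIF and 9.28% in Nur77 RA. Among these strongest peaks, windows with peaks numbered 5 in FGFR1 replicate 1, 1 in RXR LIF and 5 in RXR RA. Nur77 had 3 in LIF and 4 in RA. These windows held 5, 2, 5, 3 and 4 peaks in that order, and 1 FGFR1 replicate 2 peak was found in replicate 1.

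Scaled to the shallower library, FGFR1 replicate 2 kept 2 promoters, and RXR LIF kept 1 promoter, 1 window and 1 peak. Over all genes, 46.3% had a promoter peak in FGFR1 replicate 2 at that depth, and 7.69% in RXR LIF. Without peaks on alternating runs, windows with peaks numbered 1 in FGFR1 LIF, 5 in Nur77 RA and 1 in H3.3, and peaks 1 in FGFR1 LIF, 6 in Nur77 LIF and 1 in H3.3. Promoters of 500 bp left Nur77 RA at 1 gene, Mixl1. Windows from 5 kb upstream to the gene's end left FGFR1 LIF with 1 gene and 1 peak and RXR LIF with 10 peaks. Without peaks at other genes' promoters, FGFR1 replicate 2 had 5 peaks. Leaving out either FGFR1 RA replicate gave 4 to 5 promoters, 6 to 9 windows and 8 to 14 peaks. Where the background equals that of the genome, 4 to 8 fragments were the fewest that make a peak, and 22 of the 30 promoter peaks rested on 8 to 14.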
